A study of Mus musculus with 10 samples.

Results

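The 10 genes described here encode immune checkpoint receptors and ligands: Pdcd1 (PD-1), Cd274 (PD-L1), Pdcd1lg2 (PD-L2), Ctla4, Lag3, Havcr2 (TIM-3), Tigit, Cd276 (B7-H3), Vtcn1 (B7-H4) and Vsir (VISTA). They were picked by gene symbol from a table of 56748 genes, and all 10 were found. The table holds bulk RNA sequencing of mouse gastric tumours, with 1 library for each of 5 inflamed and 5 desert tumours. The inflamed tumours, per the labels, arose in the stomach of mice with the genotype Tff1-CreERT2;Apcfl/fl;Trp53fl/fl, in which a tamoxifen-inducible Cre under the gastric gene Tff1 acts on floxed alleles of Apc and Trp53. The desert tumours were orthotopic allografts in the stomach labelled wild type. Whether this names the host or the grafted cells, what the grafted cells carry, the age of the mice and what cells the hosts still have are not stated in the labels. Tumour type, model, genotype and way of making the tumour coincided and cannot be told apart.

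Checkpoint receptors on T cells (PD-1, CTLA-4, LAG-3, TIM-3, TIGIT) dampen activation when they meet ligands on tumour, stromal or antigen-presenting cells. PD-L1 and PD-L2 bind PD-1, CD80 and CD86 bind CTLA-4, MHC class II binds LAG-3, galectin-9 and CEACAM1 are described as binding TIM-3, and nectins such as PVR bind TIGIT. B7-H3, B7-H4 and VISTA belong to the B7 family or resemble it, and VISTA acts both as ligand and as receptor. Interferon-gamma is the best known inducer of PD-L1, through the kinases JAK1 and JAK2 and the transcription factor IRF1.

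The libraries held 15474313 to 15975770 reads in genes in inflamed tumours and 14148147 to 16951640 in desert tumours. Libraries correlated at 0.926 to 0.975 within inflamed tumours, 0.952 to 0.976 within desert tumours and 0.701 to 0.765 between the groups (Pearson, log2(FPKM + 1), across genes, which are not independent). Mitochondrial genes took 2.02% to 3.70% of reads in inflamed and 1.38% to 1.76% in desert tumours, and the part of this in any difference was not tested. Tumours carry numbers 1 to 5 in each group. Inflamed tumour 4 held the group's lowest level in 7 of the 10 checkpoint genes and inflamed tumour 1 the highest in 7. Desert tumour 4 held its group's lowest level in 6. In bulk tissue, fewer cells of a type and less RNA per cell cannot be told apart, and no result here separates them. Nothing in the labels says whether the tumours of a group came from separate mice, so p-values set differences against the spread between these tumours.

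Of the 10 genes, 9 reached a mean of 0.5 FPKM (reads or fragments scaled by gene length and library depth) over the 10 libraries and were tested with limma on log2(FPKM + 1), where a Benjamini-Hochberg adjusted p under 0.05 over all 16750 tested genes was called. Vtcn1, Cd274, Tigit, Havcr2 and Pdcd1 rose in inflamed tumours, Cd276 fell, and Ctla4, Lag3 and Vsir were not called. With 6 of 9 called, against 62.2% of all tested genes, the share was near that of the table as a whole; 5 of 9 were called higher, against 31% of all tested genes, and 1 lower, against 31.2%. The median difference of the 9 was 0.53, against -0.01 for all tested genes, on the log2(FPKM + 1) scale, which understates the change of low genes. The groups did not overlap for Vtcn1, Cd274, Tigit and Cd276 among the tested genes, against 48.9% of all tested genes (24.4% with inflamed tumours above and 24.4% below). After rescaling to TPM, 4 of the checkpoint genes were higher and 1 lower, against 22.4% and 41.6% of all tested genes, 64% in all. Limma-voom on the recovered reads called 11008 of 17399 genes, 63.3% (30% higher, 33.3% lower), and 5 higher and 1 lower of the 9 checkpoint genes it held. Pdcd1, with a mean of 0.501 FPKM over all libraries, lay just inside the filter, and Pdcd1lg2, with 0.261 FPKM, was the gene outside it.

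**Figure D1:**
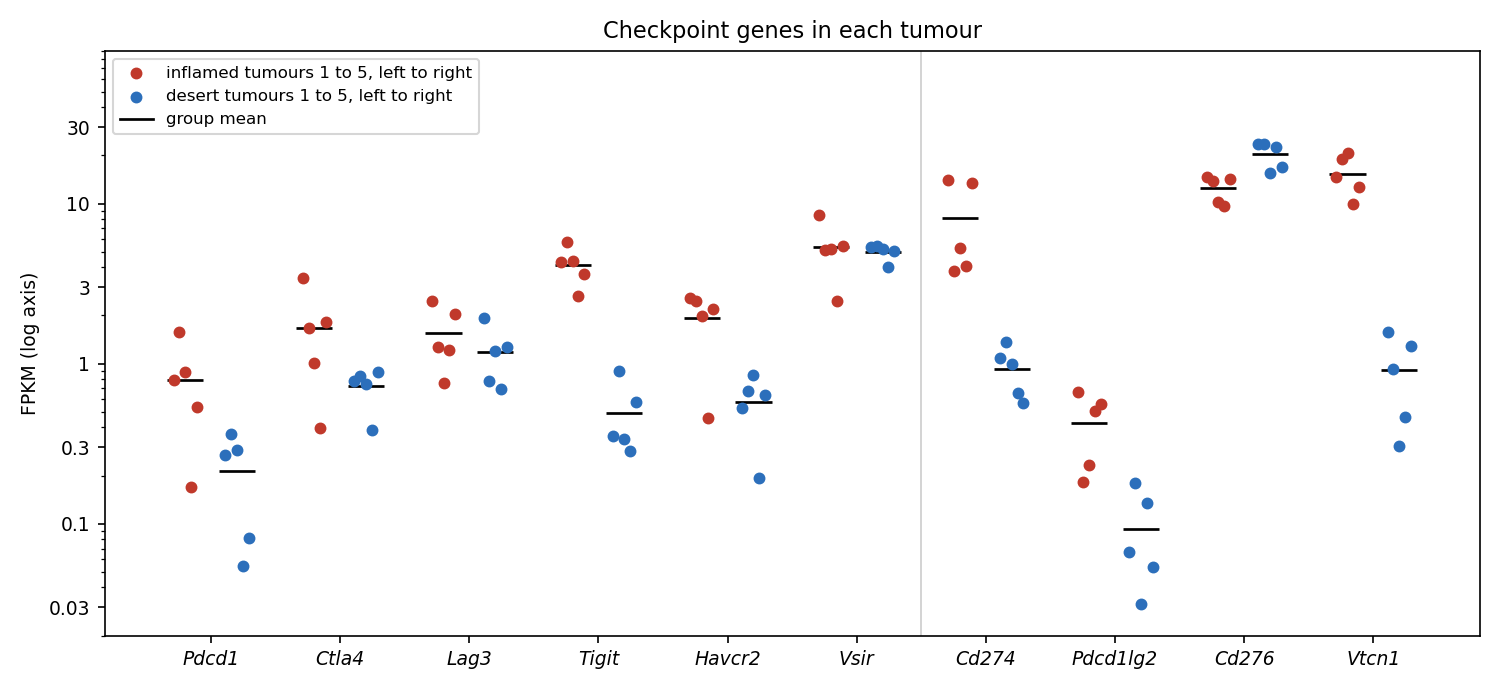
FPKM (log axis) of the 10 checkpoint genes in inflamed tumours (red) and desert tumours (blue), tumours 1 to 5 from left to right within each group, bars at the group means; receptors and Vsir stand left of the grey line, the other ligands right of it. Vtcn1, Cd274, Tigit and Pdcd1lg2 lie higher in every inflamed than in every desert tumour, Cd276 lies lower, and the other genes overlap.

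**Figure D2:**
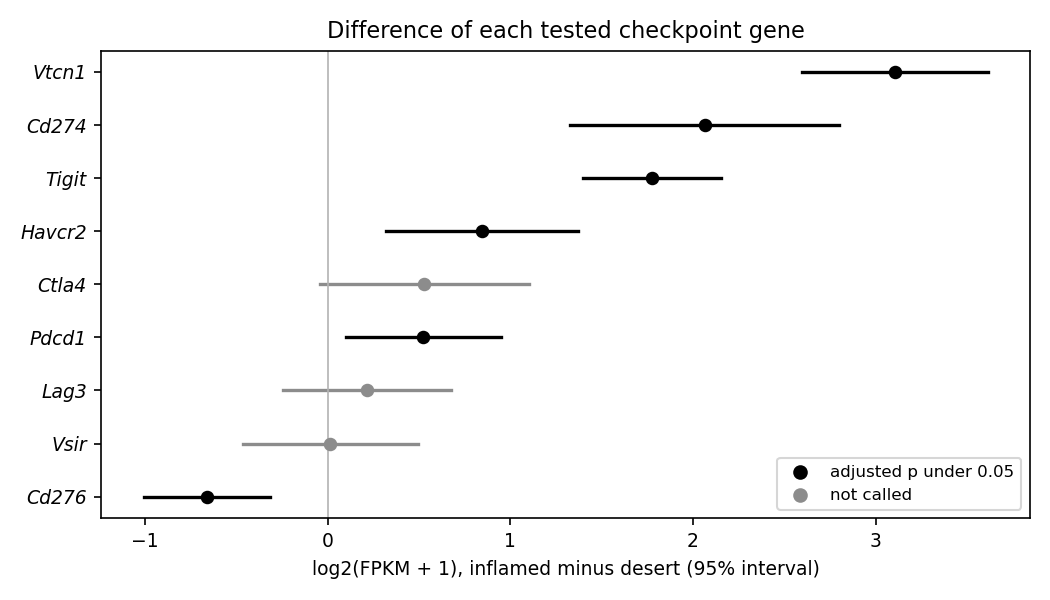
Difference in log2(FPKM + 1), inflamed minus desert, of the 9 tested checkpoint genes with the 95% interval from limma; black marks adjusted p under 0.05. Vtcn1 lies at 3.11, Cd276 at -0.66, and the intervals of Ctla4, Lag3 and Vsir include 0.

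The windows around the RefSeq starts of Cd274, Vtcn1 and Cd276 are shown because these were the tested ligand genes whose levels did not overlap between the groups. Cd276 went in the opposite direction to Cd274 and Vtcn1. The levels of Pdcd1lg2, the ligand gene outside the filter, did not overlap either, and its window is not shown. Each run holds 250 bases before and 50 bases after the RefSeq start on GRCm38.p6, 5′ to 3′ on the strand of the gene, with CpG dinucleotides in capitals.
Cd274 (chr19:29367188-29367487, + strand): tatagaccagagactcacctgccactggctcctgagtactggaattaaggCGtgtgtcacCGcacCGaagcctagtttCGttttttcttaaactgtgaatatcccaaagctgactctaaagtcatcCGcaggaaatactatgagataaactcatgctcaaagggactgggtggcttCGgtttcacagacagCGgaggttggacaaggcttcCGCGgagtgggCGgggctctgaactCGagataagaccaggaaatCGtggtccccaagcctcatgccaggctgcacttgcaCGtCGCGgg
Vtcn1 (chr3:100825209-100825508, + strand): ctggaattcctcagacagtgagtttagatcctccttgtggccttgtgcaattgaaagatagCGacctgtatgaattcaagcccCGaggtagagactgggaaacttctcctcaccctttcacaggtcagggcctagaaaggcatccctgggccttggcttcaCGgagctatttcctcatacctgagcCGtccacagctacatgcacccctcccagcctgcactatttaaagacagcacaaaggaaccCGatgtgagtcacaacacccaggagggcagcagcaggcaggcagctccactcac
Cd276 (chr9:58554984-58555283, − strand): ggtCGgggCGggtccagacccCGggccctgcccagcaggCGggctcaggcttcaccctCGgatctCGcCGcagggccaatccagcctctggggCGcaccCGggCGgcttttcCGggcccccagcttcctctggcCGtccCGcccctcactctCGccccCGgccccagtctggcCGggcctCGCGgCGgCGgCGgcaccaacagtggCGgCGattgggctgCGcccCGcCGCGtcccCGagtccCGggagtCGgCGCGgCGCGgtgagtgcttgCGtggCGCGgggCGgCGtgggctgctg

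The Cd276 window held 39 CpG dinucleotides and 78.3% G and C, the Cd274 window 15 and 52.7%, and the Vtcn1 window 5 and 53.7%, beside medians of 7 and 52.7% over 32851 RefSeq mouse windows of the same length. The Cd276 window lies wholly inside the gene as GENCODE M21 places it, whose 5′ end is at 58555437, and 0 of its 4 GENCODE transcripts hold the last 30 bases of the window, so its base composition may not be that of the promoter in use. RefSeq gave a window for 9 of the 10 genes, Lag3 being without one. Of 2 motifs searched on both strands in those 9 windows, the IRF element (GAAA, any 2 bases, GAAA) had no match. TATAAA matched Ctla4, on the + strand 40 to 45 bases after the RefSeq start, not before it. The 2 motifs occur in 3.44% and 13.6% of the 32851 windows. The absence of these letters from this window says nothing about binding of the factor.

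Vtcn1 (ENSMUSG00000051076, chromosome 3, 100825459 to 100896922, GRCm38 in GENCODE M21), the B7 family member that inhibits T cells and is known from epithelial tumours, had the largest difference of the 9 tested checkpoint genes. It was at 14.6, 18.9, 20.7, 9.95 and 12.7 FPKM across the inflamed series (tumours 1 to 5), against 1.57, 0.920, 0.308, 0.461 and 1.29 FPKM across the desert series. The lowest inflamed tumour stood above the highest desert tumour. Its mean was 16.9-fold higher in inflamed tumours (15.4 ± 4.41 against 0.908 ± 0.533 FPKM, SD, n = 5 each), with a log2 difference of 3.11 (SE 0.23, limma adjusted p = 9.54e-07). Desert tumours still gave 13 to 64 reads each. Among 6 epithelial markers 4 rose and none fell, with a median difference of 1.27 against -0.01 for all tested genes, and their summed level was 3317 to 6318 FPKM in inflamed and 1523 to 2227 FPKM in desert tumours. Krt19, a keratin of simple epithelium, was at 1253 ± 611 and 179 ± 22.7 FPKM, and Krt8 at 1543 ± 633 and 510 ± 46.6 FPKM (SD, n = 5 each). The 2 not called, named with their values known, were Epcam and Krt18, and both overlapped between the groups. Epcam was at 368 ± 35.6 and 305 ± 77.3 FPKM (limma adjusted p = 0.124). Krt18 was at 746 ± 60.9 and 643 ± 137 FPKM (limma adjusted p = 0.168; SD, n = 5 each). All 6 epithelial markers were detected in every tumour, and their part in the Vtcn1 difference was not tested.

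Cd274 (ENSMUSG00000016496, chromosome 19, 29367455 to 29388095), which encodes PD-L1, split the inflamed tumours. It was at 13.95, 3.801, 5.24, 4.06 and 13.39 FPKM in the inflamed group, tumours 1 to 5 in order, against 1.08, 1.36, 0.995, 0.653 and 0.568 FPKM in the desert group. Inflamed tumours 1 and 5 were well above the other inflamed tumours, and every inflamed tumour was above every desert tumour. The mean was 8.68-fold higher in inflamed tumours (8.09 ± 5.13 against 0.932 ± 0.325 FPKM, SD, n = 5 each), and the log2 difference was 2.07 (SE 0.33, limma adjusted p = 0.000286). A non-coding gene on the opposite strand, Gm36043, overlaps 11055 bases of Cd274 and was at 1.04 FPKM on average in inflamed and 0.158 FPKM in desert tumours. The sources used here do not say whether strand was kept, so a part of the reads of either gene may belong to the other.

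Pdcd1lg2 (ENSMUSG00000016498, chromosome 19, 29410919 to 29471161), which encodes PD-L2, starts 22823 bases beyond the end of Cd274 on the same strand. It was at 0.666, 0.182, 0.233, 0.503 and 0.561 FPKM across the inflamed series (tumours 1 to 5), against 0.0665, 0.1801, 0.0317, 0.134 and 0.0538 FPKM across the desert series. The groups did not overlap, but inflamed tumour 2 and desert tumour 2 gave 6 reads each. All inflamed tumours together held 70 reads of it and all desert tumours 16. In the fit without a filter, in which 18.1% of 34466 genes were called higher, the difference was 0.38 (SE 0.10, limma adjusted p = 0.0171). The non-coding gene A930007I19Rik overlaps it on the opposite strand by 6412 bases and was at 0.374 and 0.294 FPKM on average in inflamed and desert tumours.

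Cd276 (ENSMUSG00000035914, chromosome 9, 58524298 to 58555437), which encodes B7-H3, a molecule found on many tumours and on stromal cells, was the checkpoint gene that fell. It was at 14.7, 13.8, 10.2, 9.66 and 14.2 FPKM in the inflamed group, tumours 1 to 5 in order, against 23.6, 23.5, 15.6, 22.6 and 16.8 FPKM in the desert group. The highest inflamed tumour lay just under the lowest desert tumour. The means were 12.5 ± 2.39 and 20.4 ± 3.90 FPKM in inflamed and desert tumours (SD, n = 5 each), 1.63-fold higher in desert tumours, and the log2 difference was -0.66 (SE 0.16, limma adjusted p = 0.00347). Of 6 fibroblast markers 2 rose and none fell (median difference 0.81), and their summed level was 72.1 to 208.5 FPKM in inflamed and 49.2 to 95.5 FPKM in desert tumours. Of 6 endothelial markers 3 rose and none fell (median difference 0.52), summing to 15.5 to 42.9 and 13.5 to 18.9 FPKM in the same order of groups. Without inflamed tumour 4, 4 fibroblast and 5 endothelial markers were called higher, and without desert tumour 5, 4 fibroblast markers. The 2 fibroblast markers called higher were Dcn, at 36.6 ± 13.3 and 6.79 ± 3.95 FPKM, and Pdgfrb, at 7.64 ± 2.26 and 2.96 ± 0.610 FPKM. Col1a1 was not called, at 57.6 ± 25.5 and 32.3 ± 14.8 FPKM. Pdgfra and Lum, fibroblast markers named with their values known, were not called either, at 10.5 ± 3.58 and 14.6 ± 5.47 FPKM for Pdgfra and at 3.47 ± 1.75 and 4.62 ± 2.82 FPKM for Lum. All these values are in inflamed and desert tumours, in that order (SD, n = 5 each). The part of these cells in the Cd276 difference was not tested.

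Vsir (ENSMUSG00000020101, chromosome 10, 60346851 to 60372684), which encodes VISTA and is known from myeloid cells, was at 8.49, 5.11, 5.24, 2.45 and 5.42 FPKM across the inflamed series (tumours 1 to 5), against 5.33, 5.41, 5.18, 4.03 and 5.06 FPKM across the desert series. The desert tumours lay inside the range of the inflamed tumours. The difference was 0.01 (95% interval -0.46 to 0.49, limma adjusted p = 0.959), and it took either sign over the alternatives (-0.23 after rescaling to TPM, 0.22 without inflamed tumour 4). Vsir lies within Cdh23 on the opposite strand, a cadherin gene at no more than 0.0993 FPKM in any tumour.

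The 5 ligand genes (Cd274, Pdcd1lg2, Cd276, Vtcn1, Vsir) together were at 26.6 to 52.5 FPKM in inflamed and 22.1 to 31.7 FPKM in desert tumours, so that the sums overlapped between the groups. Cd276 gave 24.5% to 36.3% of the sum in inflamed tumours, without overlap with the 70.5% to 81.1% of desert tumours. Vtcn1 gave 27.5% to 49.7% and 1.39% to 5.41%, and Cd274 9.09% to 28.9% and 2.34% to 4.5%, in inflamed and desert tumours. Vtcn1 thus held the largest share in inflamed tumours 2, 3 and 4, and Cd276 in every desert tumour. These shares are descriptions without a test.

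**Figure D3:**
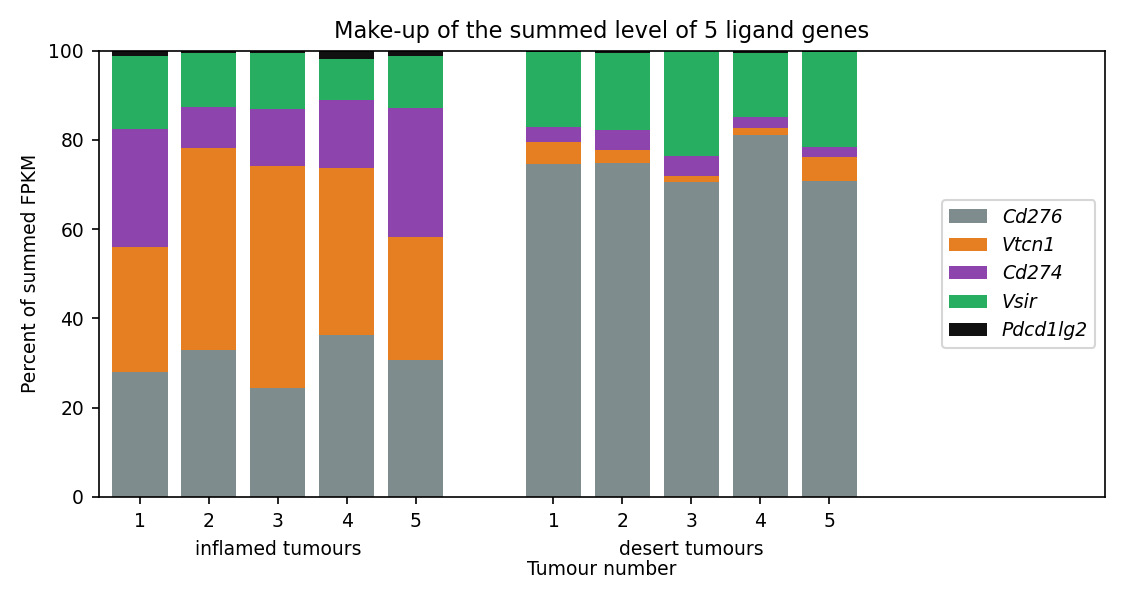
Percent of the summed FPKM of 5 ligand genes given by each gene in inflamed tumours 1 to 5 (left) and desert tumours 1 to 5 (right). Cd276 makes up 24.5% to 36.3% of the sum in inflamed tumours, where Vtcn1 and Cd274 take larger shares, against 70.5% to 81.1% in desert tumours.

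Tigit (ENSMUSG00000071552, chromosome 16, 43648867 to 43664146), a receptor of T and NK cells that binds nectins, was the most abundant of the receptors Pdcd1, Ctla4, Lag3, Havcr2 and Tigit in inflamed tumours. It was at 4.32, 5.75, 4.36, 2.65 and 3.66 FPKM in the inflamed group, tumours 1 to 5 in order, against 0.355, 0.897, 0.338, 0.286 and 0.574 FPKM in the desert group, without overlap. The mean was 8.47-fold higher in inflamed tumours (4.15 ± 1.13 against 0.490 ± 0.253 FPKM, SD, n = 5 each), with a log2 difference of 1.78 (SE 0.17, limma adjusted p = 6.51e-06). These values rest on 37 to 89 reads in inflamed and 5 to 14 reads in desert tumours.

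Havcr2 (ENSMUSG00000020399, chromosome 11, 46454935 to 46481255), which encodes TIM-3 and is made by T cells and myeloid cells, was at 2.57, 2.46, 1.98, 0.459 and 2.20 FPKM across the inflamed series (tumours 1 to 5), against 0.527, 0.671, 0.845, 0.193 and 0.639 FPKM across the desert series. Inflamed tumour 4 alone fell into the range of the desert tumours. The log2 difference was 0.84 (SE 0.24, limma adjusted p = 0.00976), with means of 1.93 ± 0.856 and 0.575 ± 0.242 FPKM in inflamed and desert tumours (SD, n = 5 each).

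Pdcd1 (ENSMUSG00000026285, chromosome 1, 94038305 to 94052553), which encodes PD-1, was at 0.793, 1.57, 0.888, 0.170 and 0.537 FPKM in the inflamed group, tumours 1 to 5 in order, against 0.270, 0.365, 0.289, 0.0544 and 0.0818 FPKM in the desert group. Inflamed tumour 4 lay among the desert tumours and the other inflamed tumours above them. The log2 difference was 0.52 (SE 0.19, limma adjusted p = 0.0341), resting on 5 to 51 reads per inflamed and 2 to 12 per desert tumour. This call was lost without a filter on low values (adjusted p = 0.0517), after rescaling to TPM (0.062), with quantile normalization (0.069), and on leaving out inflamed tumour 1, 2 or 3 (0.0621, 0.0724 and 0.0689) or desert tumour 4 or 5 (0.072 and 0.0712), with 0.00494 to 0.0724 over the 19 alternatives that held it.

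Ctla4 (ENSMUSG00000026011, chromosome 1, 60887000 to 60915832), which competes with CD28 for CD80 and CD86, was at 3.41, 1.68, 1.01, 0.395 and 1.81 FPKM across the inflamed series (tumours 1 to 5), against 0.783, 0.834, 0.747, 0.384 and 0.882 FPKM across the desert series. Inflamed tumour 4 again lay within the range of the desert tumours and the other inflamed tumours above it. The difference was 0.53 (95% interval -0.04 to 1.10) and was not called (limma adjusted p = 0.0983). Without inflamed tumour 4 it was called (0.74, adjusted p = 0.0114; its range across alternatives was 0.0114 to 0.212). The pseudogene Rpl18-ps1 overlaps Ctla4 on the same strand over 525 bases, at 0.772 and 0.861 FPKM on average in inflamed and desert tumours, and how the authors' counting treated reads in both was not given.

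Lag3 (ENSMUSG00000030124, chromosome 6, 124904361 to 124911705), a CD4-like receptor of activated lymphocytes, was at 2.48, 1.27, 0.759, 1.21 and 2.03 FPKM in the inflamed group, tumours 1 to 5 in order, against 1.92, 0.781, 1.21, 0.698 and 1.27 FPKM in the desert group. The groups overlapped over most of their range. The difference was 0.21 (95% interval -0.24 to 0.67, limma adjusted p = 0.392), with 28 to 92 reads per inflamed and 28 to 62 per desert tumour.

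By mean FPKM, which is per gene length, the order in inflamed tumours was Vtcn1, Cd276, Cd274, Vsir, Tigit, Havcr2, Ctla4, Lag3, Pdcd1 and Pdcd1lg2. Neighbours in this order overlapped in range except Tigit and Havcr2, and Vtcn1 was above Cd276 in 3 of 5 tumours. In desert tumours the order was Cd276, Vsir, Lag3, Cd274, Vtcn1, Ctla4, Havcr2, Tigit, Pdcd1 and Pdcd1lg2. Cd276 stood apart from Vsir (20.4 and 5.0 FPKM) and Vsir from Lag3 (5.0 and 1.18 FPKM), while all later neighbours overlapped. Lag3 stood below 7 of these genes in inflamed tumours and below Cd276 and Vsir alone in desert tumours.

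T cell markers were higher in inflamed tumours, beside the receptors. Of 12 T cell markers all 9 tested rose (median difference 1.52), and their summed level was 15.9 to 50.9 FPKM in inflamed and 1.09 to 2.80 FPKM in desert tumours. None of the 12 was at 0 in all desert tumours. Trbc2, a constant gene of the T cell receptor beta chain, was at 7.77 ± 3.76 and 0.149 ± 0.110 FPKM, and Cd8a, the coreceptor of cytotoxic T cells, at 3.49 ± 1.96 and 0.139 ± 0.102 FPKM (SD, n = 5 each). Of 6 NK cell markers both tested ones, Nkg7 and Klrd1, rose (median difference 1.51). The list summed to 3.98 to 11.6 FPKM in inflamed and 0.137 to 1.74 FPKM in desert tumours. Most of the sum in inflamed tumours came from Nkg7 and Klrd1, and which cells made them was not tested. The other markers of the list lay under the filter. Klrb1c averaged 0.0363 and 0.0823 FPKM and Ncr1 0.0718 and 0.029 FPKM in inflamed and desert tumours, both with overlap. Klrk1 and Prf1 had higher means in inflamed tumours, Prf1 with overlap. Of 7 regulatory T cell markers 2 of 3 tested rose (median difference 0.53): Ikzf2, a transcription factor also found outside these cells, at 1.37 ± 0.322 and 0.0299 ± 0.0261 FPKM, and Tnfrsf4 (OX40), whose call was lost without inflamed tumour 1 or 5 (limma adjusted p = 0.0511 and 0.0517), after rescaling to TPM (0.1) and with quantile normalization (0.0835), each of which leaves 1 gene called. Tnfrsf18 (GITR) averaged 4.24 ± 0.577 and 3.99 ± 0.785 FPKM (SD; limma adjusted p = 0.608). Foxp3, named with its values known, lay under the filter at 0.208 ± 0.0584 and 0.123 ± 0.0446 FPKM (SD, n = 5 each), and the groups overlapped. In the fit without a filter 4 genes of this list were called higher, and with limma-voom likewise 4. The part of these cells in the receptor differences was not tested.

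Pdcd1, Ctla4, Lag3 and Tigit summed to 11.01, 10.3, 7.01, 4.42 and 8.03 FPKM across inflamed tumours 1 to 5, against 3.32, 2.88, 2.58, 1.42 and 2.81 FPKM across desert tumours 1 to 5. The CD3 genes Cd3d, Cd3e and Cd3g, also named with their values known, encode signalling chains shared by T cells. They summed to 2.45 to 7.63 FPKM in inflamed and 0.108 to 0.209 FPKM in desert tumours. The receptor sum was therefore 1.05 to 2.70 times the Cd3 sum in inflamed tumours and 9.40 to 30.8 times in desert tumours, without overlap. For Lag3 alone the ratio was 0.202 to 0.497 and 4.43 to 17.8, for Ctla4 0.161 to 0.460 and 2.54 to 7.27, and for Tigit 0.479 to 1.51 and 1.62 to 5.08, in inflamed and desert tumours. Over this denominator Pdcd1 overlapped between the groups (0.0695 to 0.411 and 0.360 to 2.50). The Cd3 sum of a desert tumour rests on 6 to 11 reads, against 108 to 379 in an inflamed tumour, so each ratio in a desert tumour is imprecise, and no test was made. The size of the gap depended on the denominator. Cd247, a further signalling chain gene of the CD3 complex, named with its values known, was not part of the Cd3 sum. It lay under the filter at 0.377 ± 0.205 and 0.158 ± 0.0684 FPKM in inflamed and desert tumours (SD, n = 5 each), with overlap. In desert tumours its mean was close to that of the Cd3 sum (0.167 FPKM), so adding it would lower the ratios there. Over Trac, the constant gene of the T cell receptor alpha chain, a choice made after seeing the data, the receptor sum was 0.953 to 2.61 times in inflamed and 3.05 to 4.33 times in desert tumours, with 27 to 144 and 6 to 15 Trac reads. Over the summed T cell markers, likewise chosen after seeing the data, it was 0.176 to 0.465 and 1.03 to 2.57 times. Tigit overlapped between inflamed and desert tumours over both of these (0.434 to 1.46 and 0.462 to 0.950 over Trac, 0.0801 to 0.261 and 0.174 to 0.320 over the T cell markers), as did Pdcd1, while Ctla4 and Lag3 did not.

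**Figure D4:**
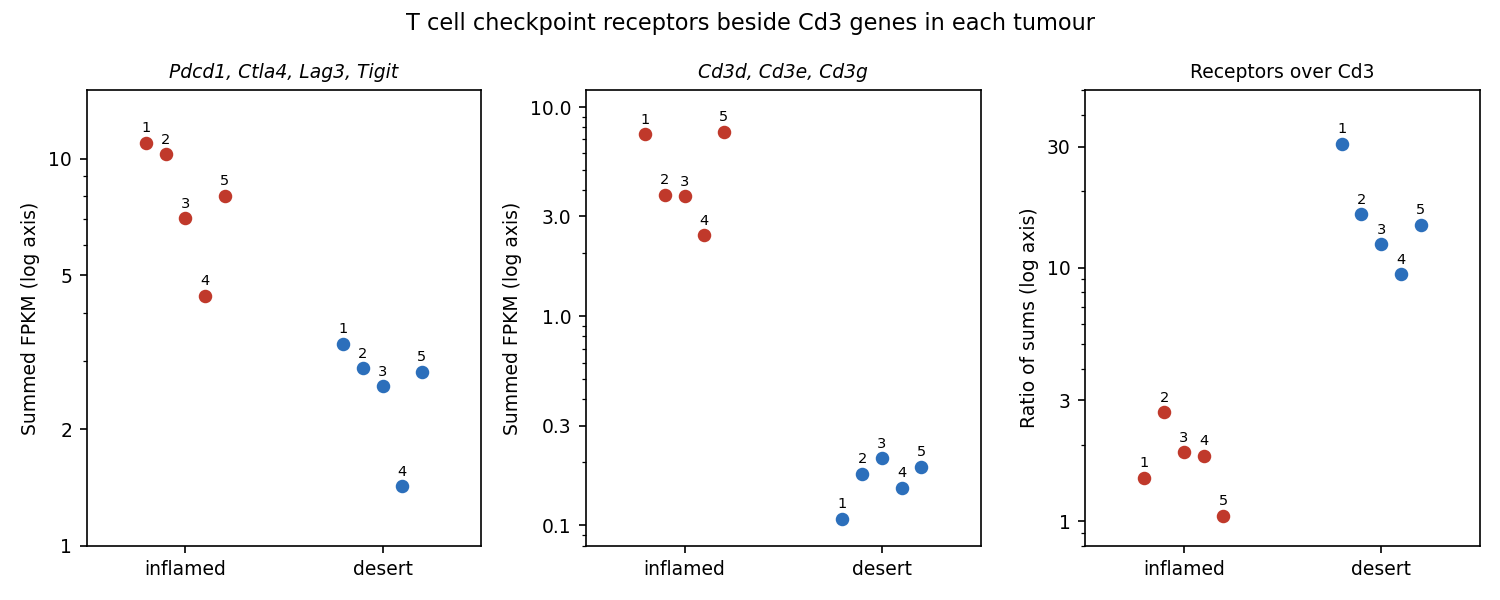
Summed FPKM of Pdcd1, Ctla4, Lag3 and Tigit (left), summed FPKM of Cd3d, Cd3e and Cd3g (middle) and their ratio (right), on log axes, for inflamed and desert tumours 1 to 5 (numbered points). Both sums are higher in every inflamed tumour, whereas the ratio is 1.05 to 2.70 in inflamed tumours and 9.40 to 30.8 in desert ones, where the Cd3 sum rests on 6 to 11 reads.

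The interferon-gamma and PD-L1 control genes rose as a whole list: all 12 were tested and called higher, 0 lower, against 31% of all tested genes called higher. Their median difference was 0.98 against -0.01 for all tested genes. Stat3 and Socs1, named with their values known, lay near the threshold (limma adjusted p = 0.0487 and 0.0421). Stat3 in desert tumour 1, at 35.5 FPKM, was above every inflamed tumour, the highest of which was at 29.4 FPKM. Ifng (interferon-gamma), named with its values known, was at 1.93, 0.321, 1.15, 0.101 and 1.89 FPKM across inflamed tumours 1 to 5, whereas every desert tumour lists it at 0. Inflamed tumours 1 and 5 had the highest Ifng and the highest Cd274. They also had the highest summed T cell markers (50.9 and 45.7 FPKM, against 15.9 to 22.1 FPKM in the other inflamed tumours). The same held for the summed NK cell markers, mostly Nkg7 and Klrd1 (10.3 and 11.6 against 3.98 to 4.04 FPKM). It held too for the macrophage markers (352 and 427 against 102.8 to 229 FPKM) and for the regulatory T cell and dendritic cell markers. It did not hold for the epithelial, fibroblast, endothelial or neutrophil markers, the last at 175.7 and 31.7 against 12.5 to 168.2 FPKM. The part of any of these in the Cd274 levels was not tested. Irf1, the transcription factor that acts on the Cd274 gene and likewise named with its values known, was at 37.0, 23.4, 31.5, 31.9 and 57.2 FPKM across the inflamed series (tumours 1 to 5), against 12.8, 11.7, 8.08, 6.75 and 7.52 FPKM across the desert series. Inflamed tumours 1 and 5 again held the highest values. Cmtm6, which keeps PD-L1 protein at the cell surface, was at 51.0 ± 6.69 and 12.04 ± 1.54 FPKM (SD, n = 5 each; log2 difference 1.99, SE 0.12, limma adjusted p = 1.46e-07). The receptor gene Ifngr1 was at 55.7 ± 6.77 and 14.95 ± 1.70 FPKM in inflamed and desert tumours (SD, n = 5 each).

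**Figure D5:**
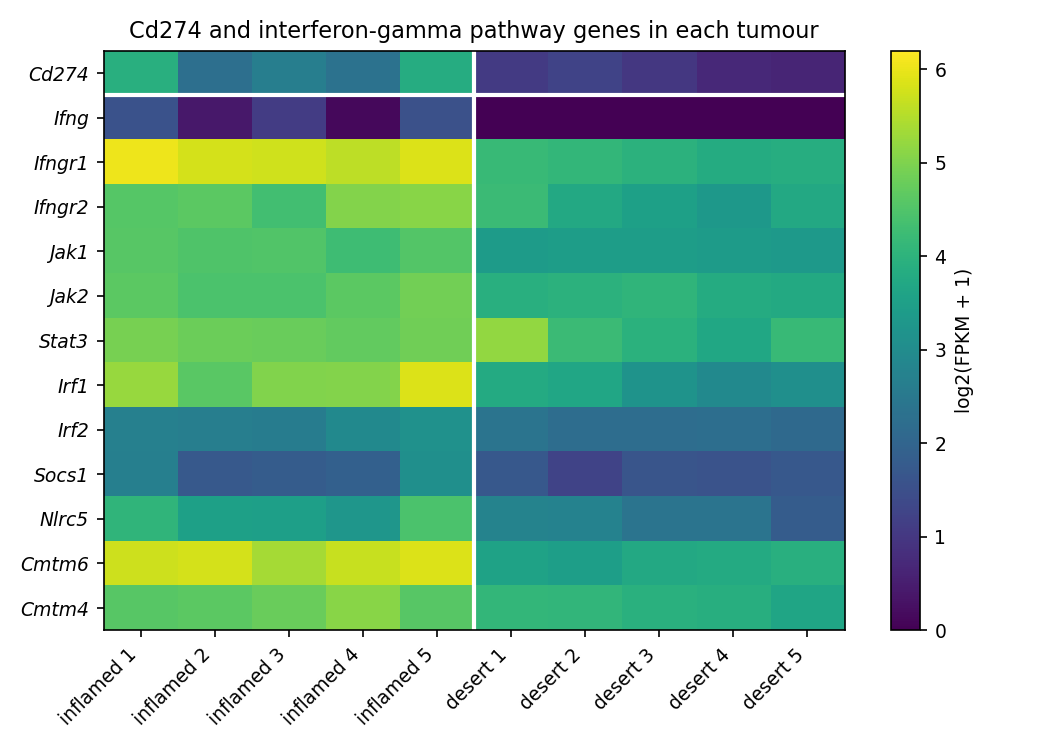
Level, as log2(FPKM + 1), of Cd274 (top row) and 12 interferon-gamma pathway and PD-L1 control genes in inflamed tumours 1 to 5 (left) and desert tumours 1 to 5 (right). Cd274, Ifng and Irf1 are highest in inflamed tumours 1 and 5, and Ifng is at 0 in all desert tumours.

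Genes of the TIGIT axis, nectins and receptors that compete with TIGIT for them, went both ways. Of 6 tested genes of this list of 8, 3 rose and 2 fell (median difference 0.35). Among those that rose was Cd96, a competing receptor rather than a ligand, named with its values known. Cd96 was at 1.21 ± 0.464 and 0.0514 ± 0.0587 FPKM in inflamed and desert tumours (SD, n = 5 each; limma adjusted p = 0.000125). Nectin2 was at 40.6 ± 4.47 and 23.9 ± 3.98 FPKM and Nectin4 at 8.76 ± 2.12 and 3.38 ± 0.857 FPKM in inflamed and desert tumours (SD, n = 5 each). Pvr, the main high-affinity ligand of TIGIT, fell, with 5.44 ± 0.424 and 13.1 ± 5.0 FPKM (SD, n = 5 each; log2 difference -1.07, SE 0.19, limma adjusted p = 0.000526). Its values in inflamed tumours, 4.85 to 5.82 FPKM, lay below all desert tumours, 9.06 to 21.5 FPKM.

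Partners of TIM-3, LAG-3 and VISTA also differed among themselves, with 5 of 9 tested genes higher, 1 lower and a median difference of 0.66; after rescaling to TPM 3 were lower. Ceacam1, an adhesion molecule of epithelium and leukocytes, was at 50.1 ± 4.91 and 1.13 ± 0.560 FPKM in inflamed and desert tumours (SD, n = 5 each; log2 difference 4.62, SE 0.17, limma adjusted p = 5.35e-09). Igsf11, described as a VISTA ligand, fell: it was at 2.02 ± 0.332 and 14.3 ± 3.85 FPKM (SD, n = 5 each) with a log2 difference of -2.31 (limma adjusted p = 7.31e-07). Lgals9 (galectin-9) was the most abundant of this list, at 249 ± 66.6 and 163 ± 80.1 FPKM (SD, n = 5 each), and was not called (limma adjusted p = 0.0689). It was called without inflamed tumour 3 (adjusted p = 0.0439) or desert tumour 1 (0.0103). Lgals3 (galectin-3) averaged 47.3 ± 18.2 and 60.2 ± 21.9 FPKM (SD; limma adjusted p = 0.311).

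Of the CD28 family list of 5 genes, 3 were tested and 2 rose (median difference 0.99). Cd86, a ligand of CTLA-4 and CD28, was at 1.68 ± 0.943 and 0.281 ± 0.0915 FPKM (SD, n = 5 each; log2 difference 0.996, limma adjusted p = 0.00194). Icos, an activating receptor of T cells, was at 1.15 ± 0.673 and 0.0374 ± 0.0753 FPKM, and its ligand gene Icosl at 5.0 ± 1.51 and 3.16 ± 1.11 FPKM (SD, n = 5 each), the last not called (limma adjusted p = 0.0587) except without inflamed tumour 2 (0.0487) or desert tumour 1 (0.0429). Of 6 genes for phosphatases and kinases below PD-1, 4 rose and 2 fell (median difference 0.40), whereas after rescaling to TPM 1 rose. Ptpn6, which encodes the phosphatase SHP-1, fell, with 11.2 ± 1.57 and 27.1 ± 3.04 FPKM (SD, n = 5 each; limma adjusted p = 3.43e-06), while Inpp5d, which encodes the lipid phosphatase SHIP1, rose, with 2.82 ± 0.851 and 0.897 ± 0.297 FPKM. The count of genes that fell was 1 when inflamed tumour 2, 3 or 4, or in turn desert tumour 2 or 4, was left out; Fyn, the other gene that fell and named with its values known, had a limma adjusted p of 0.042 with all tumours.

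Of 14 other inhibitory receptor and ligand genes, 6 of 8 tested rose and none fell (median difference 0.88). Cd244a (2B4) was at 6.87 ± 1.97 and 1.01 ± 0.560 FPKM and Tnfrsf14 (HVEM), the ligand of BTLA, at 8.52 ± 2.72 and 2.57 ± 0.498 FPKM in inflamed and desert tumours (SD, n = 5 each). Cd47 and its receptor gene Sirpa were not called (limma adjusted p = 0.209 and 0.1), at 25.1 ± 4.81 and 20.7 ± 5.28 FPKM for Cd47 and at 9.80 ± 3.37 and 15.2 ± 5.53 FPKM for Sirpa. Sirpa was called lower without inflamed tumour 1 (adjusted p = 0.0461) or desert tumour 2 (0.0292), the 2 settings in which 1 gene of the list fell when a library was left out. Of 11 genes for transcription factors tied to T cell exhaustion, 3 of 8 tested rose and 4 fell (median difference -0.17). Tox, the best known of them and named with its values known, stood at 2.16 ± 0.678 and 0.390 ± 0.166 FPKM. Nr4a1, an immediate-early gene in many cell types, was at 7.06 ± 1.09 and 61.9 ± 14.2 FPKM, and Tcf7, a partner of beta-catenin also outside T cells, at 15.4 ± 3.31 and 48.4 ± 14.3 FPKM (SD, n = 5 each).

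Most macrophage markers were not called. Of 10 macrophage markers 2 of 9 tested rose and none fell (median difference 0.55), and the list summed to 102.8 to 427 FPKM in inflamed and 100.7 to 291 FPKM in desert tumours, with inflamed tumour 4 and desert tumour 4 the lowest. Csf1r, the receptor for macrophage growth factor, averaged 8.45 ± 4.31 and 2.97 ± 0.983 FPKM (SD; limma adjusted p = 0.0103), and Lyz2, a lysozyme of myeloid cells, averaged 111 ± 55.9 and 94.6 ± 52.8 FPKM (adjusted p = 0.624; SD, n = 5 each). The count was 6 without inflamed tumour 4 and 1 without inflamed tumour 1, desert tumour 1 or desert tumour 4. Of 8 dendritic cell markers 6 lay under the filter and 2 were tested, so the list median of -0.61 rests on these 2. Ccr7, a homing receptor, fell, at 1.79 ± 1.22 and 5.41 ± 3.55 FPKM (SD, n = 5 each). Batf3 was not called, at 0.892 ± 0.386 and 0.973 ± 0.466 FPKM (SD, n = 5 each; limma adjusted p = 0.834). In the fit without a filter 2 genes of the list were called higher, and with limma-voom likewise 2. All 6 neutrophil markers rose (median difference 2.56), summing to 12.5 to 175.7 FPKM in inflamed and 0.845 to 1.98 FPKM in desert tumours. The inflamed tumours were split, with sums of 161.3 to 175.7 FPKM in tumours 1 to 3 and of 12.5 and 31.7 FPKM in tumours 4 and 5. Retnlg, named with its values known, was at 0 in inflamed tumour 4 and overlapped between the groups. The part of these cells in the Cd274, Havcr2 and Vsir levels was not tested.

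Genes whose deviations from the group mean were most like those of a checkpoint gene over the 10 libraries were sought among 11783 genes with a mean of at least 1 FPKM (without antigen receptor segments, pseudogenes, predicted genes or genes of ribosomal proteins), by the root mean square difference of scaled deviations. The nearest was Msr1, a scavenger receptor of macrophages, to Havcr2 (0.177), with Ddx21 and Tlr13 next. Gimap6, Cp and Srgn were nearest to Vsir, and Ctdp1, Fas and Ccl5 to Cd274. The nearest to Ctla4 was Lgmn, to Lag3 Fbxw11, to Tigit Tm4sf1, to Pdcd1 Gmfb, to Cd276 Aasdhppt and to Vtcn1 Msh3. The values for the 3 nearest to each gene ran from 0.177 to 0.384. With 11783 candidates over 10 libraries, close matches may arise without a shared cell type, and no link was tested. Msr1 was at 1.61 ± 0.649 and 0.608 ± 0.212 FPKM in inflamed and desert tumours (SD, n = 5 each).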

How the data were processed

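RNA from 5 inflamed and 5 desert gastric tumours of mice was sequenced, with 1 library per tumour. The authors deposited FPKM values per gene and library as a single table, with 0 sample columns left unused. The sources used here do not give the aligner, counter or annotation. A build, mm10, is named in the submitters' processing notes. TRIzol served for RNA extraction, per the labels' protocols, whose text speaks of fewer tumours than the series holds; all 10 were used. Gene IDs in the deposited table were placed on GRCm38 by ID with GENCODE M21, and no position from the table itself is printed. FPKM multiplied by the deposited gene length gave whole multiples of a constant step in each library (100% of values above 0 within 0.01 of a whole number), which gave the reads per gene and library quoted here. The authors' scaling behind the FPKM is not simply that sum of reads, and its formula was not given.

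Log2(FPKM + 1) was compared with limma 3.58.1 (R 4.3.3, with version 1.17.8 of the data.table package), using mean-variance trend and robust options, a two-sided test and no covariates, over genes with a mean of at least 0.5 FPKM, at Benjamini-Hochberg adjusted p under 0.05; differences are inflamed minus desert. The same steps were tested on simulated data. Figures and summaries used Python 3.11.15 with pandas 2.3.3 and matplotlib 3.10.9. Alternatives were pseudocounts of 0.1 and 0.01, no filter, a mean of at least 5 FPKM, quantile normalization, median-of-ratios scaling, rescaling to TPM, limma lacking the trend and robust options, the tumour number as a block, limma-voom run on reads recovered from FPKM (genes averaging 10 reads or more) and each library left out in turn. The checkpoint genes and 16 lists of partner and marker genes were chosen with earlier results of these data known, and 1 gene of them is not reported here. From each list the rule named the 2 tested genes with the biggest absolute change and the 2 most abundant genes, plus the 3 genes most like each tested checkpoint gene; some of these are printed, and genes outside the rule are marked in the text. Printed intervals are 95% intervals of the mean difference and rest on the spread between these tumours.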

Additional observations from a re-analysis of the deposited data

Results flagged for a closer look

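Among the genes and ratios given here, 106 groups of 5 tumours were checked for a value far from the other 4. The rule was a gap to the nearest over the range above 0.71, and 9 stood out. Chance gives about 1 in 20 for independent groups with normally distributed values. These FPKM values come from shared libraries and need not be so, so that rate is a rough guide. Havcr2 was at 0.459 FPKM in inflamed tumour 4, against 1.98 to 2.57 FPKM in the other inflamed tumours. Ctla4 was at 0.384 FPKM in desert tumour 4, against 0.747 to 0.882 FPKM, and Vsir at 4.03 FPKM there, against 5.06 to 5.41 FPKM in the other desert tumours. Ccr7 was at 11.7 FPKM in desert tumour 4, against 3.28 to 4.34 FPKM. Icos was at 0.172 FPKM in desert tumour 2, against no more than 0.0154 FPKM in the other desert tumours. Nectin2 was at 30.6 FPKM in desert tumour 1, against 20.8 to 23.6 FPKM. Ceacam1 was at 58.7 FPKM in inflamed tumour 2, against 47.0 to 49.3 FPKM, and Nr4a1 at 8.96 FPKM there, against 6.22 to 6.86 FPKM in the other inflamed tumours. Tcf7 was at 9.59 FPKM in inflamed tumour 3, against 15.9 to 17.5 FPKM.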

How the results depend on the processing

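Vtcn1, Cd274, Tigit, Havcr2 and Cd276 kept their direction and call in every alternative that held them, and Ctla4 and Pdcd1 changed in those named beside them. With a mean of at least 5 FPKM, which leaves 3 of the checkpoint genes in the test, 1 checkpoint gene was higher, 2784 of all genes were higher and 3070 lower, and 28 of the list genes were higher, against 5, 5197, 5221 and 65. With 1 library left out, 4 to 6 checkpoint genes were higher and 1 lower, 4893 to 5165 of all genes were higher and 4929 to 5146 lower, and 59 to 69 list genes were higher and 9 to 11 lower. After rescaling to TPM all tested genes had a median difference of -0.23, with 3750 genes higher and 6969 lower. No sign was seen that the tumour numbers pair the samples. Correlations of deviations between same-numbered tumours were -0.0737 to 0.0763, 0 of 5 above 0.1, and 1 of 5 matched its own number best. Such correlations cannot exclude that same-numbered tumours shared a batch. With the replicate block 5 checkpoint genes were higher and 1 lower, 4958 of all genes were higher and 4967 lower, and of the list genes 64 were higher and 9 lower. Of 640 counts over the lists and alternatives 46 moved by over 1.5 times, 13 of them with the mean of at least 5 FPKM. The low read numbers of Pdcd1, Pdcd1lg2 and Tigit in desert tumours limit the precision of their values there.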
